A study of Mus musculus with 2756 samples.

Results

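N4d.early2 is the largest of the clusters of 4-day neurons that the authors defined in single cells of the embryonic mouse neocortex, and its members were taken as every cell whose deposited cluster label reads N4d.early2. The rule found 11.9% of 2756 cells, in a table of 16441 genes and 15 clusters. All but 5 of the cells were collected 96 h after labelling, with 76 cells from injections at E12, 47 at E14, 54 at E15 and the remainder, the largest number, at E13. The other 5 cells came from 1 h after labelling, and 0 from 24 h. The clusters set beside it were N4d.early1 with 1.12% of all cells (31 cells), N4d.late1 with 5.3% and N4d.late2 with 7.44%.

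The cells were labelled with FlashTag, a fluorescent dye injected into the ventricle that marks progenitors in division at the ventricular surface, and their daughters can then be followed as a cohort of 1 birth date. The injection was made at embryonic day (E) 12, 13, 14 or 15. The cells summed for the comparisons were collected 96 h later, when the embryos were at E16, E17, E18 or E19. Per the labels, the putative primary somatosensory cortex was dissected and dissociated with trypsin. The brightest labelled cells were sorted, captured on a C1 HT chip and sequenced as full-length polyadenylated cDNA without strand information. All groups share this preparation. The labels name no genotype, sex, litter or animal, so each injection day is 1 sample, and pooling of embryos is not stated. Only dye-bright cells were kept, so a share of cells is a share of that sorted population. At 96 h the E12 and E13 cells carry run code LTHT9 and the E14 and E15 cells LTHT10, and the meaning of these codes was not stated. Injection day and age at collection therefore cannot be told apart, and run code can be told apart from the day only within 2 pairs of neighbouring days.

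Neurons born from apical progenitors of the dorsal telencephalon leave the ventricular zone, pass through the intermediate zone and settle in the cortical plate, where neurons with earlier birth dates form the deep layers and later ones the superficial layers. Deep-layer neurons that project out of the cortex are known for the transcription factors Bcl11b, Fezf2, Sox5 and Tle4, and superficial-layer neurons for the homeobox factors Cux1 and Cux2. Mef2c and the calmodulin kinase subunit Camk2b are used as marks of excitatory neurons that have begun to mature.

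Cells of N4d.early2 were found after all 4 injection days. They made up 31.15% of all cells at E12 (95% Clopper-Pearson interval 25.39 to 37.37), 54.31% at E13 (48.13 to 60.39), 18.5% at E14 (13.92 to 23.84) and 22.78% at E15 (17.6 to 28.66). The share was highest at E13 and lowest at E14, and the intervals at E14 and E15 overlapped. Among 4-day neurons alone the N4d.early2 share was 52.78% at E12, 69.71% at E13, 22.27% at E14 and 41.54% at E15, so the order of the days was the same with E15 nearer to E12. With 1 sample a day no test of the shares was possible: a two-sided exact permutation of the 4 days cannot give a p below 0.0833.

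The clusters beside it had other day patterns. N4d.late2 was also found after every injection, at 17.62%, 19.85%, 11.42% and 29.54% of cells at E12, E13, E14 and E15. N4d.early1 held 21 cells at E12 and 9 at E13, and 0 at E14 and at E15, which allow shares of up to 1.18% and 1.27%. N4d.late1 took 53.15% of the cells at E14 and held 4 cells at E12, 1 at E13 and 6 at E15. N4d.early2 could for this reason be set beside N4d.late2 on all 4 days, beside N4d.early1 mainly at E12, and beside N4d.late1 mainly at E14.

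Reads per cell were higher in N4d.early2 than in the other clusters of 4-day neurons. The median was 436320 reads in N4d.early2 (quartiles 364640 and 513620), against 292740 in N4d.early1, 263870 in N4d.late1 and 210700 in N4d.late2. The sums over cells held 37.0, 64.1, 19.3 and 21.1 M reads in N4d.early2 at E12, E13, E14 and E15. On a matched day the N4d.early2 sum was the deeper one, except beside N4d.late1 at E14, which held 38.4 M reads. Mitochondrial reads had a median of 4.13% in N4d.early2, against 4.98% in N4d.early1, 7.32% in N4d.late1 and 7.69% in N4d.late2. Reads of ribosomal protein genes took 6.70% in N4d.early2, against 3.40%, 2.52% and 2.98% in the same order of clusters. After each cell was thinned to 100000 reads, N4d.early2 had a median of 3309.5 detected genes, against 3069.5 in N4d.early1, 3443 in N4d.late1 and 2813 in N4d.late2. The part of these differences in the gene differences below was not tested, and list medians are therefore also given over cells with at most 5% mitochondrial reads, a restriction chosen after the data were seen. It left 62, 120, 31 and 38 cells of N4d.early2 by day, 13 cells of N4d.early1 at E12, 31 of N4d.late1 at E14, and 11, 13 and 17 of N4d.late2 at E12, E13 and E15, so these medians rest on few cells of the other clusters.

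**Figure D1:**
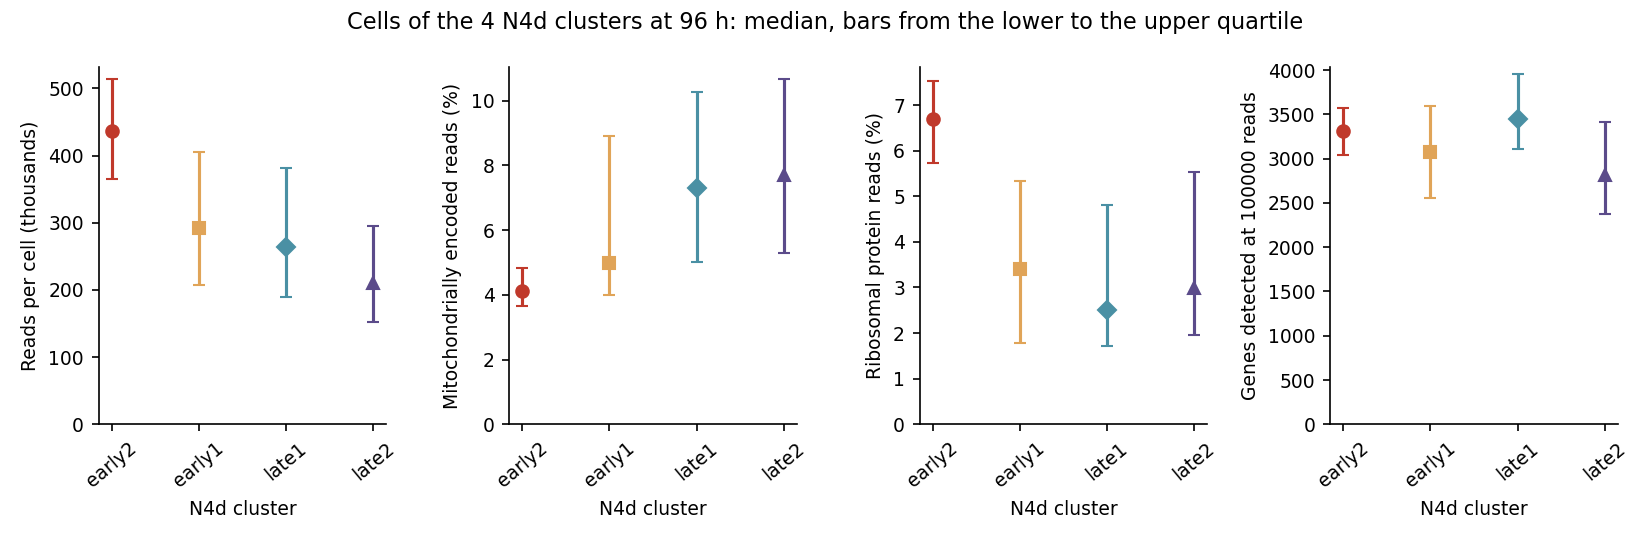
Reads per cell, share of mitochondrial reads and of reads on ribosomal protein genes (percent), and genes detected at 100000 reads, in cells at 96 h, for N4d.early2 first and then N4d.early1, N4d.late1 and N4d.late2. Points are medians over cells and bars run from the lower to the upper quartile. N4d.early2 has the highest median depth at 436320 reads, the lowest mitochondrial median at 4.13% and the highest ribosomal median at 6.70%.

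Gene levels are given as CPM, counts per 1 M counts, of the summed cells of a cluster on a day, scaled by TMM, and they compare 1 gene between groups, not genes with each other. A sum cannot separate more cells with a transcript from more transcript per cell, so the share of thinned cells with at least 1 read is given for some genes. Differences between clusters are the log2(CPM + 1) of N4d.early2 minus that of the other cluster on the same day. The authors clustered these same counts, so every difference between clusters is a description with no test. Most genes named below were picked for a large difference or after their values were seen. That their groups do not overlap follows in part from this choice, and the share of all genes without overlap was not counted.

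The excitatory neuron markers Neurod6 and Neurod2 were present in nearly all N4d.early2 cells, while some other markers of these neurons were found in fewer. Neurod6 and Neurod2, transcription factors of pallial excitatory neurons, had a read in 100% and 98.46% of thinned N4d.early2 cells, against 18.58% and 16.39% of thinned cells of the early apical progenitor cluster (AP.early). In the interneuron clusters the shares were also high, at 81.2% and 66.92% in IN.1 and 76.24% and 73.27% in IN.2, so the level separates these cells better than a read does. Neurod6 was at 1563 CPM in N4d.early2, against 260.1 CPM in IN.1 and 193.6 CPM in IN.2, without TMM scaling. Slc17a7, a vesicular glutamate transporter, had a read in 4.92% of thinned N4d.early2 cells, against 0.546% in AP.early. A read of the transporter Slc17a6 was found in 29.54% of thinned N4d.early2 cells, and of the T-box factor Tbr1 in 64.92%. Gad2, which makes the inhibitory transmitter GABA, had a read in 20.31% of N4d.early2 cells, against 75.19% in IN.1, 77.23% in IN.2 and 6.01% in AP.early. The proliferation mark Mki67 was detected in 8.92% of N4d.early2 cells, against 93.44% in AP.early, and Sox2 in 8.92%, against 92.35%. Other progenitor markers were less far apart. Vim was detected in 20.92%, against 99.45%, and Slc1a3 in 36.31%, against 48.63%. At E15 the N4d.early2 shares were 48.15% for Vim and 74.07% for Slc1a3. The 11 interneuron markers summed to 228.1, 105.9, 200.1 and 123.6 CPM in N4d.early2 at E12, E13, E14 and E15, with 0, 0, 1 and 2 of them at 0. For microglia 3 markers summed to 5.91, 1.50, 0.103 and 0 CPM, and for the oligodendrocyte lineage 2 markers to 0.108, 2.48, 0 and 4.64 CPM. These lists were near 0, while interneuron RNA was low but present.

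Of the 4 markers that were given for the cluster, Mef2c and Camk2b were higher in N4d.early2 than in N4d.late2. Both were lower than in N4d.late1 at E14, and Bcl11b and Sox5 were low beside N4d.early1. Mef2c (chr13:83504034-83667080, plus strand, GRCm38, protein coding) encodes a transcription factor that drives neuronal maturation. It was at 1347, 1234, 1356 and 1143 CPM in N4d.early2 at E12, E13, E14 and E15, against 747.7, 515.5, 1107 and 762 CPM in N4d.late2. All N4d.early2 values lay above all N4d.late2 values, with a difference of 0.75 ± 0.41 (SD over 4 days). N4d.early1 had 1159 and 1852 CPM at E12 and E13, so N4d.early2 was the higher at E12, with a difference of 0.22, and the lower at E13. Beside N4d.late1 (2654 CPM at E14) the difference was -0.97. Mef2c had a read in 97.85% of thinned N4d.early2 cells, against 100% in N4d.early1, 100% in N4d.late1 and 90.58% in N4d.late2. In AP.early it had one in 4.4%, but in IN.1 in 92.48% and in IN.2 in 71.29%. Without TMM scaling Mef2c was at 1186 CPM in N4d.early2, 1221 CPM in IN.1 and 381 CPM in IN.2, so it did not separate N4d.early2 from IN.1.

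Camk2b (chr11:5969644-6066362, minus strand) encodes a subunit of the calcium/calmodulin-dependent kinase II. N4d.early2 held 305.8, 304.5, 352.1 and 347.7 CPM of it, against 234.4, 86.9, 177.5 and 265.3 CPM in N4d.late2. The groups did not overlap, and the difference was 0.89 ± 0.67. N4d.early2 was lower than N4d.early1 (413.3 CPM at E12, difference -0.43) and than N4d.late1 (675.4 CPM at E14, difference -0.94). The share of thinned cells with a Camk2b read was 75.38% in N4d.early2, against 80.65% in N4d.early1, 97.92% in N4d.late1 and 56.02% in N4d.late2.

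Bcl11b (chr12:107910403-108003602, minus strand), which encodes the zinc finger factor CTIP2 of corticofugal neurons, went against the label. It was at 105.5, 38.4, 49.6 and 22.1 CPM in N4d.early2, against 674.6 and 423.2 CPM in N4d.early1 at E12 and E13. Both N4d.early1 values lay above every value in N4d.early2, and the difference at E12 was -2.67. N4d.late2 held 319.1, 127.8, 7.74 and 82.4 CPM, so N4d.early2 was the lower of the pair at E12, E13 and E15 and the higher at E14. A read of Bcl11b was found in 50%, 27.97%, 29.79% and 20.37% of thinned N4d.early2 cells at E12, E13, E14 and E15, and in 95.24% of N4d.early1 cells at E12.

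Sox5 (chr6:143828425-144781977, minus strand) encodes a factor that times the production of deep-layer neuron types. N4d.early2 had 78.7, 38.5, 54 and 58.1 CPM, against 751.7 and 1099 CPM in N4d.early1 at E12 and E13, with a difference of -3.24 at E12. The N4d.late2 values of 255.6, 129.3, 1.55 and 64.9 CPM lay on both sides of those of N4d.early2. Sox5 was detected in 30.77% of thinned N4d.early2 cells, against 93.55% in N4d.early1, 29.86% in N4d.late1 and 39.79% in N4d.late2.

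**Figure D2:**
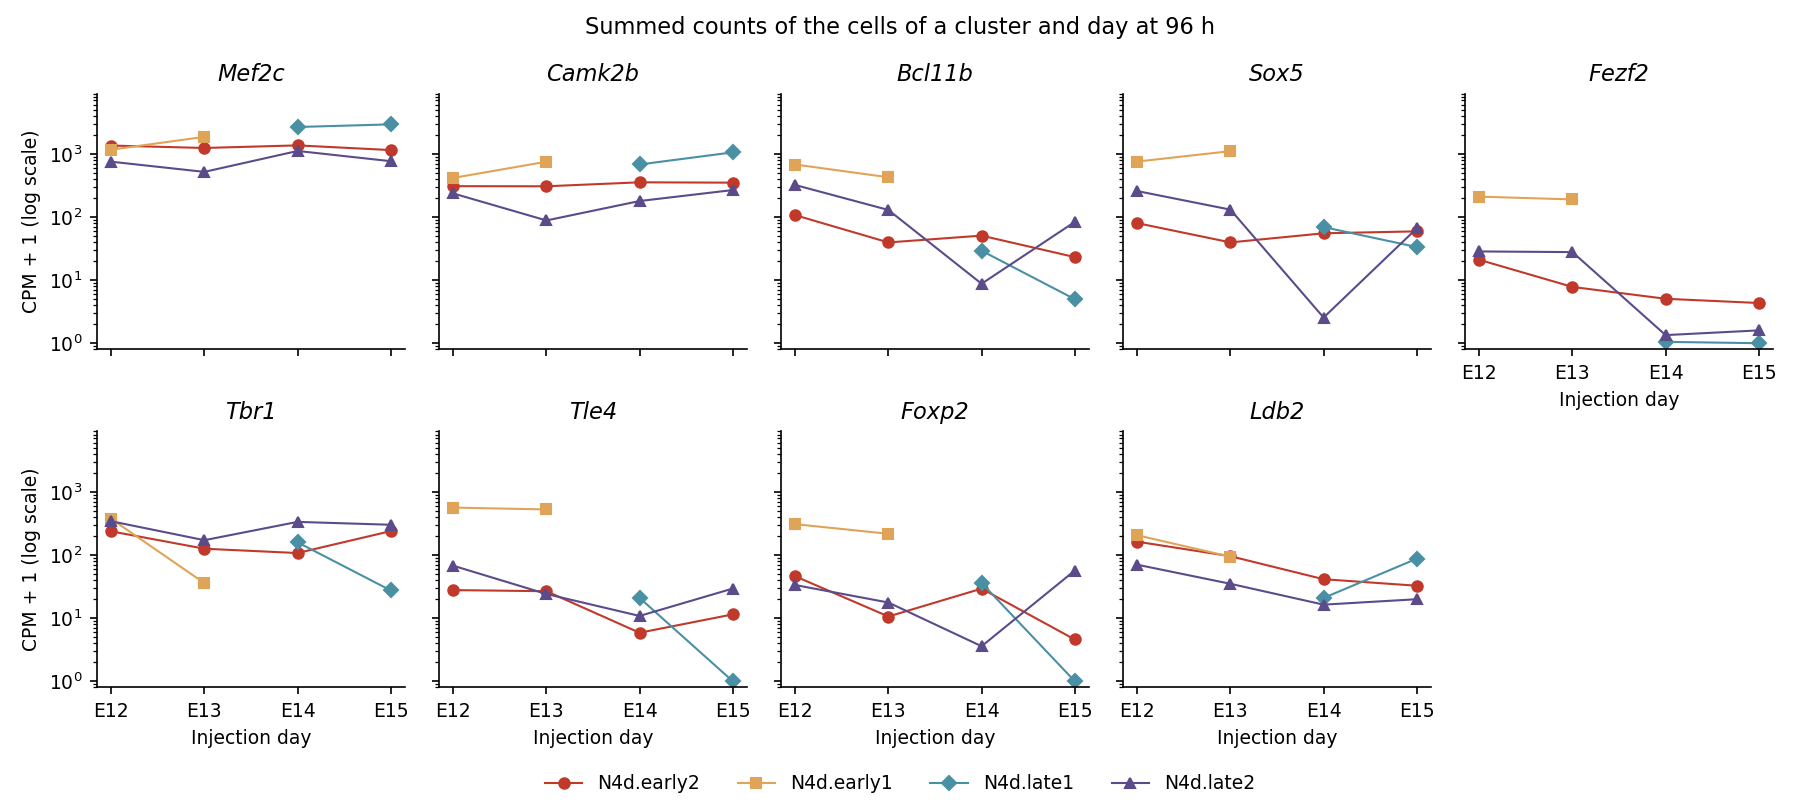
CPM + 1 of 9 followed genes (log axis) by injection day at 96 h in N4d.early2, N4d.early1, N4d.late1 and N4d.late2. Each point is the sum over the cells of a cluster on a day. N4d.early2 lies far below N4d.early1 for Bcl11b, Sox5, Fezf2, Tle4 and Foxp2.

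Few N4d.early2 cells held reads of Bcl11b and Sox5 together. After thinning, the pair was found in 36 of 320 N4d.early2 cells (11.25%), against 25 of 30 N4d.early1 cells (83.33%). The share was also low in N4d.late1, at 9.72%, and in N4d.late2, at 18.23%. Of the N4d.early2 cells, 30.26% at E12 held this pair, against 6.99% at E13, 2.13% at E14 and 3.70% at E15, and in N4d.late2 it was 29.27% at E12. Depth was equal in these counts, and a missing read does not show that a cell lacks the transcript.

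Most deep-layer genes tested were lower in N4d.early2 than in N4d.early1, and 7 of 14 superficial-layer genes were higher. A gene was counted as higher or lower where it differed by at least 1 log2 unit (2-fold) at E12 with the same sign at E13. Of 8683 genes, 1241 were higher in N4d.early2 (14.3%) and 839 were lower (9.66%), with a median over all genes of 0.02. Of 13 deep-layer and corticofugal genes tested, 0 were higher and 9 lower: Bcl11b, Sox5, Fezf2, Tle4, Foxp2, Zfpm2, Hs3st4, Etv1 and Wnt7b. The list's median was -2.74, and -2.97 in cells with at most 5% mitochondrial reads. N4d.early1 rests on 21 cells at E12 and 9 at E13, and some single values of it were near 0 or differed widely between these days.

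Among these, Tle4, a Groucho-type corepressor of layer 6 corticothalamic neurons, was at 26.7, 25.6, 4.86 and 10.4 CPM in N4d.early2, against 560.7 and 523.8 CPM in N4d.early1. Fezf2, which specifies subcortical projection neurons, was at 19.9, 6.79, 4.05 and 3.33 CPM, against 208.4 and 188.2 CPM. Foxp2, a forkhead factor of layer 6, was at 44.9, 9.58, 28.2 and 3.58 CPM, against 305.6 and 215.03 CPM. In all 3 the groups were far apart, and the differences at E12 were -4.34 for Tle4, -3.32 for Fezf2 and -2.74 for Foxp2. A Tle4 read was found in 12.31% of thinned N4d.early2 cells, against 77.42% in N4d.early1, 9.03% in N4d.late1 and 16.75% in N4d.late2. For Fezf2 the share was 9.23% in N4d.early2, against 58.06% in N4d.early1, 1.39% in N4d.late1 and 9.95% in N4d.late2. Hs3st4, a heparan sulfate sulfotransferase, had 16.1 CPM in N4d.early2 at E12, against 422.4 CPM in N4d.early1, and a read in 11.8% and 66.7% of the cells in that order.

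Of the 14 upper-layer and callosal genes tested, 7 were higher in N4d.early2 than in N4d.early1 and 1 was lower, with a median of 1.02 that was the same in cells with at most 5% mitochondrial reads. Among the 7 were the homeobox factors Cux1, Cux2 and Lhx2, the POU factors Pou3f2 and Pou3f3, and the adaptor Dok5. Cux1 was at 478.4 and 418.4 CPM in N4d.early2 at E12 and E13, against 147.4 and 83.1 CPM in N4d.early1. Lhx2 was at 151.1 and 120.7 CPM, against 35.9 and 68.4 CPM. In both genes the pairs did not overlap, with differences at E12 of 1.69 for Cux1 and 2.04 for Lhx2. Rorb, a nuclear receptor of layer 4, was the exception, at 42.8 and 19.7 CPM in N4d.early2, against 164.8 and 126.6 CPM in N4d.early1.

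Genes of excitability and transmitter response were more often lower than higher in N4d.early2 than in N4d.early1. Of 18 ion channel genes 2 were higher (Cacna2d1, Kcnk2) and 7 lower, among them the sodium channel subunits Scn2a1 and Scn3b and the calcium channel subunits Cacna1a and Cacna1e, with a median of -0.81. Another of the 7, the potassium channel Kcnc1, turned to 0.12 in cells with at most 5% mitochondrial reads. Scn2a1 was at 75.1 and 66.7 CPM in N4d.early2 at E12 and E13, against 173.1 and 346.5 CPM in N4d.early1. Of 15 transmitter receptor genes 1 was higher (Gria4) and 5 lower (Gria3, Grin2b, Grik2, Grik3 and Grm5), with a median of -0.73. Grin2b, an NMDA receptor subunit, was at 271.97 and 207.3 CPM, against 631.6 and 826.8 CPM, so that the pairs were well apart. Of 23 synapse genes 0 were higher and 5 lower, Snap25 among them with 129.03 and 117.6 CPM in N4d.early2, against 349.1 and 294.4 CPM in N4d.early1. In cells with at most 5% mitochondrial reads the medians of these lists were -0.48, -0.90 and -0.42.

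Surface and guidance genes went both ways. Of 26 axon guidance genes 3 were higher in N4d.early2 than in N4d.early1 (Sema3a, Epha3, Efnb2) and 8 lower, among them the plexins Plxna1 and Plxna2 and the semaphorins Sema6a and Sema6d. Of 12 cadherins 1 was higher (Cdh12) and 3 lower (Cdh11, Cdh13, Pcdh7). The adhesion molecule Pcdh7 had 47 and 27.5 CPM in N4d.early2, against 396.7 and 464.4 CPM in N4d.early1. Of 94 ribosomal protein genes 19 were higher and 0 lower, with a median of 0.69 (0.45 in cells with at most 5% mitochondrial reads). The immediate early genes, which respond to stimulation and to dissociation, had 3 of 7 higher (Fos, Jun and Ier2), but their median of 0.80 became -0.40 in the cells with few mitochondrial reads.

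Across all genes the largest differences from N4d.early1 at 50 CPM or more were outside these lists for the higher genes and partly inside them for the lower ones. The 8 higher genes were Mrpl54 and Mrpl55 of the mitochondrial ribosome, the ubiquitin-like modifier Ufm1, the growth factor Vegfb, the secreted Fam19a2, Gemin7 of the SMN complex, the mitochondrial dehydrogenase Hsd17b10 and the elongation factor Supt4a. Fam19a2 was at 106.3 and 59.3 CPM in N4d.early2 at E12 and E13, against 2.79 and 0 CPM in N4d.early1. Hsd17b10 was at 178.5 and 166.8 CPM, against 13.3 and 18.1 CPM. N4d.early1 was far lower in both genes on both days. The 8 lower genes were Grm3, Ptprr, Necab1, Etv1, Csmd2, Hs3st4, Tle4 and Lgi1. Grm3, a metabotropic glutamate receptor, was at 0.173 and 3.08 CPM in N4d.early2, against 141.4 and 135.3 CPM in N4d.early1, with a read in 1.3% and 42.9% of the E12 cells in that order.

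**Figure D3:**
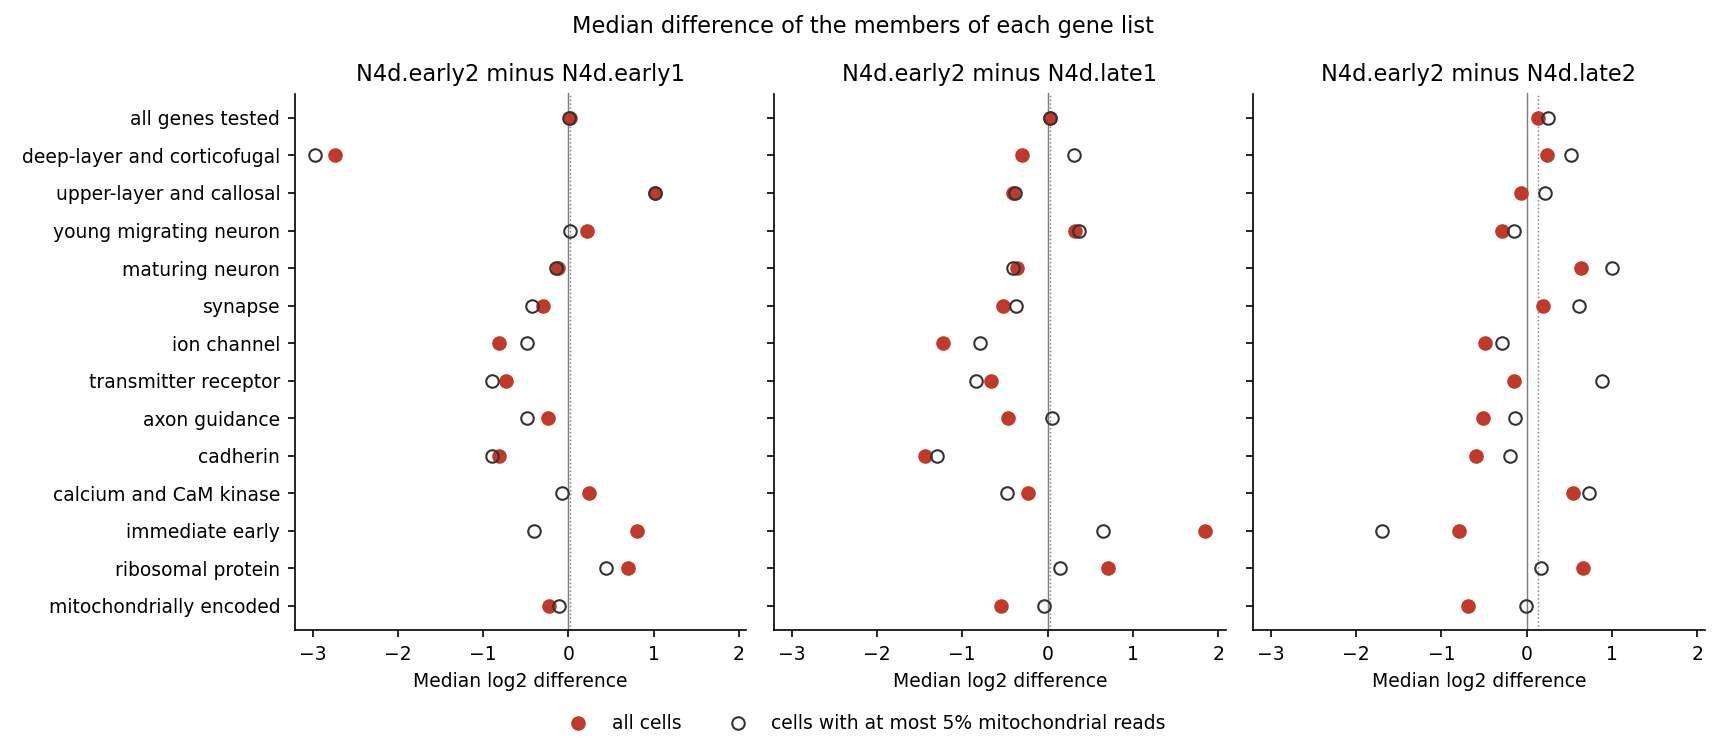
Median difference in log2(CPM + 1) of the tested members of each gene list, N4d.early2 minus N4d.early1 (E12), minus N4d.late1 (E14) and minus N4d.late2 (mean over 4 days). Filled points are all cells, open points cells with at most 5% mitochondrial reads, and the dotted line is the median of all genes tested. Deep-layer genes have a median of -2.74 and upper-layer genes one of 1.02 beside N4d.early1.

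Beside N4d.late1, the cluster of the E14 cohort, N4d.early2 was lower in 7 of 14 cadherins and 9 of 18 ion channel genes. A gene was counted where it differed by at least 1 log2 unit at E14, with 47 cells in N4d.early2, and had the same sign at E15, where N4d.late1 held 6 cells. Of 8767 genes 646 were higher in N4d.early2 (7.37%) and 574 lower (6.55%), with a median over all genes of 0.03. Of 14 cadherins tested 0 were higher and 7 lower: Cdh8, Cdh10, Cdh11, Cdh13, Pcdh7, Pcdh17 and Pcdh20, with a median of -1.44 (-1.30 in cells with at most 5% mitochondrial reads). Cdh10 was at 7.31 and 7.55 CPM in N4d.early2 at E14 and E15, against 114.2 and 150.8 CPM in N4d.late1. It had a read in 12.8% of thinned N4d.early2 cells at E14, against 55.6% in N4d.late1. Pcdh20 was at 1.33 and 0.147 CPM, against 55.2 and 48.8 CPM, so that Pcdh20 was near 0 in N4d.early2.

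Of 18 ion channel genes 0 were higher in N4d.early2 than in N4d.late1 and 9 lower, with a median of -1.22 (-0.80 in cells with at most 5% mitochondrial reads). Among them were Scn3a, Cacna1a, Cacna1b, Cacna1c, Cacna1e, Cacna2d1 and Atp1b1. Cacna1e, a pore-forming calcium channel subunit, was at 63.1 and 9.60 CPM in N4d.early2 at E14 and E15, against 189.8 and 203.5 CPM in N4d.late1. Of 18 transmitter receptor genes 1 was higher (Gabra2) and 3 lower (Grin1, Grin2b and Gabrb2), with a median of -0.66 (-0.83 in the restricted cells). Gabrb2, a GABA-A receptor subunit, was at 5.71 and 8.67 CPM in N4d.early2, against 72 and 118.4 CPM in N4d.late1. Of 23 synapse genes 0 were higher and 3 lower (Syt1, Shank2 and Lrfn5). These groups were apart on both days in each gene given.

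Counts of laminar genes past the rule beside N4d.late1 are to be read against all genes, with 7.37% higher and 6.55% lower. Of 14 upper-layer genes 0 were higher and 1 lower, and of 9 deep-layer genes 0 were in either direction. With so few genes tested, these counts cannot be set apart from the shares of all genes. The lower upper-layer gene was Cux2, at 68.3 and 94.6 CPM in N4d.early2, against 161.9 and 159.2 CPM in N4d.late1. Neurod1, a proneural factor of young neurons, was the only higher gene of 13 in the young neuron list, about the share of all genes. It was at 40.8 and 45.3 CPM, against 15.8 and 7.96 CPM. Of the 7 immediate early genes 5 were higher (Fos, Fosb, Jun, Egr1 and Btg2), with a median of 1.85. In cells with at most 5% mitochondrial reads the median was 0.65, and the difference of Fos turned to -0.66. The ribosomal median of 0.71 was 0.14 in those cells. Over all cells 6 of 94 ribosomal genes were higher, near the share of all genes, and 0 lower.

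The genes of largest difference from N4d.late1 included Necab1, Cdh10, Gucy1b3, Lmo3, Lpl, Lrrc4c, Man2a2 and Bai3 on the lower side. Lpl, the lipoprotein lipase, was at 84.5 and 37.2 CPM in N4d.early2 at E14 and E15, against 544.4 and 145.3 CPM in N4d.late1. Lmo3, a LIM-only transcription regulator, was at 28.1 and 8.23 CPM, against 189.1 and 80.1 CPM. A read of Lmo3 was found in 27.7% of thinned N4d.early2 cells at E14, against 68.4% in N4d.late1. On the higher side were Rn7sk, Esd, Nkain3, Zfp558, Dpy19l1, Zfp467, Znrd1 and Dnajc30. Esd, an esterase, was at 194.6 and 180.9 CPM in N4d.early2, against 34.6 and 29.9 CPM in N4d.late1, with the pairs far apart. Rn7sk is a small nuclear RNA with near-identical copies in the genome, and its level is uncertain.

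Beside N4d.late2, which was found on every day, a stricter rule could be used, a difference of at least 1 log2 unit in the same direction on each of the 4 days. Of 8906 genes 38 were higher in N4d.early2 (0.427%) and 81 lower (0.909%). The median over all genes was 0.13, and 0.04 with scaling to library size, and 56.57% of them had a positive difference, so list medians and counts of signs are to be read against these values. With any 1 of the days left out, the rule asks for 3 days and counted 1.1% to 1.99% of genes as higher and 1.7% to 2.31% as lower. In cells with at most 5% mitochondrial reads, over E12, E13 and E15, the shares were 3.23% and 1.44%, and 13 of the 38 and 14 of the 81 genes were among them.

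Of 14 maturing neuron genes 12 had a positive difference from N4d.late2 (85.71%, against 56.57% of all genes), with a median of 0.64 (1.00 in cells with at most 5% mitochondrial reads), though 0 passed the rule on all 4 days. Stmn2, which regulates microtubules in growth cones, was at 2270, 2190, 1746 and 1693 CPM in N4d.early2, against 702.2, 783.9, 940.9 and 834.8 CPM in N4d.late2. Gap43, the growth-associated protein of axon tips, was at 484.4, 455.8, 513.5 and 515.7 CPM, against 191.9, 134.8, 205.2 and 258.8 CPM. Every N4d.early2 day lay above every N4d.late2 day in both genes, with differences of 1.27 ± 0.38 for Stmn2 and 1.35 ± 0.31 for Gap43. The neuronal tubulin Tubb3 was at 2448, 2424, 2118 and 1916 CPM in N4d.early2, against 1315, 1602, 1240 and 1196 CPM in N4d.late2, again without overlap, at 0.74 ± 0.13.

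Of 14 calcium signalling genes 11 had a positive difference (78.57%, against 56.57% of all genes), with a median of 0.54 (0.74 in cells with at most 5% mitochondrial reads). Of these genes only Hpca passed the rule on all 4 days, and its values are given with the genes that stood apart from all 3 clusters. Calm3, a calmodulin gene, was at 565.4, 490.6, 410.9 and 411.8 CPM in N4d.early2, against 162.5, 261.5, 225.5 and 269.1 CPM in N4d.late2, at 1.04 ± 0.52. Calmodulin is encoded by several genes with the same protein, and reads shared between them could be counted with either. Dok5, an adaptor of receptor tyrosine kinases listed with the upper-layer genes, was at 450.5, 488.1, 523.4 and 383.7 CPM in N4d.early2, against 177.3, 252.9, 120.9 and 136.4 CPM in N4d.late2. The groups did not overlap, and the difference was 1.47 ± 0.48.

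Among deep-layer genes, 7 of 12 tested had positive differences from N4d.late2, at 58.33% about the share of all genes, with a median of 0.24 (0.52 in cells with at most 5% mitochondrial reads) and 0 past the rule. Ldb2, a LIM-domain binding factor of subcortical projection neurons, was at 160.97, 94.4, 40.2 and 31.5 CPM in N4d.early2, against 69, 33.9, 15.3 and 18.9 CPM in N4d.late2. It was higher in N4d.early2 on 4 of 4 days, at 1.18 ± 0.33, though levels of different days overlapped. Tbr1, a T-box factor of postmitotic neurons and of layer 6, was at 235.2, 124.4, 106.1 and 237.1 CPM in N4d.early2, against 340.4, 170, 332.4 and 299.3 CPM in N4d.late2. Tbr1 was lower in N4d.early2 on every day, at -0.74 ± 0.61, with the widest gap at E14.

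Among progenitor genes, Eomes alone was lower in N4d.early2 than in N4d.late2 by the rule on 4 days. Eomes, the T-box factor of basal progenitors, was at 3.02, 13.2, 12.4 and 0.784 CPM in N4d.early2, against 43.5, 38.5, 99.2 and 98 CPM in N4d.late2, at -3.41 ± 1.80. The groups did not overlap. The other 3 of 4 basal progenitor genes did not pass. In cells with at most 5% mitochondrial reads, over E12, E13 and E15, 0 basal progenitor genes passed, Eomes included. All 9 apical progenitor genes tested had negative differences with a median of -1.08 (-0.65 in cells with at most 5% mitochondrial reads), and 0 passed. In those restricted cells 2 apical progenitor genes were lower by the rule. The 12 apical progenitor markers summed to 146.6, 217.3, 555.1 and 529.9 CPM in N4d.early2, against 297.8, 635.6, 675.2 and 1581 CPM in N4d.late2. They summed to 4561 CPM in AP.early. The astrocyte list summed to 99.7, 142.6, 503 and 578.7 CPM in N4d.early2, and both sums were higher at E14 and E15 than at E12 and E13.

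All 18 ion channel genes had negative differences from N4d.late2, with a median of -0.48 (-0.30 in cells with at most 5% mitochondrial reads), and 0 passed the rule. Gria2, the AMPA receptor subunit that limits calcium entry, was at 1537, 1361, 1680 and 2365 CPM in N4d.early2, against 3637, 3270, 4801 and 3709 CPM in N4d.late2. The vesicular glutamate transporter Slc17a6 was at 46.2, 66.8, 55.5 and 68.7 CPM, against 124.05, 161.4, 100.1 and 212.2 CPM. Neither gene overlapped between the clusters, with differences of -1.17 ± 0.37 for Gria2 and -1.28 ± 0.33 for Slc17a6. Of 27 axon guidance genes 26 had a negative difference and 1 a positive one, with a median of -0.51, and 0 passed the rule. In cells with at most 5% mitochondrial reads that median was -0.13. Sema3c, a secreted semaphorin, was at 65.6, 51.4, 62 and 66.3 CPM in N4d.early2, against 77, 188.1, 206.2 and 452 CPM in N4d.late2. Its level was even over the days in N4d.early2. The transmitter receptor median of -0.15 was 0.88 in cells with at most 5% mitochondrial reads, so that list has no settled direction here.

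Stress and quality lists also differed between these clusters, and their part in the values above was not tested. The 7 immediate early genes all had negative differences from N4d.late2, with a median of -0.80 (-1.69 in cells with at most 5% mitochondrial reads). The ribosomal protein genes were positive in 96 of 97 cases with a median of 0.66, which was 0.16 in the restricted cells. The 14 mitochondrially encoded genes had a median of -0.69, and -0.01 in the restricted cells.

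The 8 genes of largest difference on the higher side were Gtf2e2, Lamtor2, Cebpzos, Dctn3, Nop10, Dbndd1, Ndrg1 and Uchl5. Dctn3, a subunit of the dynein activator dynactin, was at 562.2, 501.7, 521.6 and 492 CPM in N4d.early2, against 222.5, 247.6, 105.4 and 170.7 CPM in N4d.late2. It had a read in 88.16%, 81.12%, 91.49% and 83.33% of thinned N4d.early2 cells, against 53.66%, 66%, 42.86% and 72.58% of N4d.late2 cells, so the order held at equal depth. Ndrg1 was the steadiest over days, at 215.2, 281.7, 265.9 and 137.8 CPM in N4d.early2, against 73.4, 110.7, 97.3 and 51.7 CPM in N4d.late2, with a difference of 1.43 ± 0.08. Lamtor2, part of the lysosomal scaffold of mTORC1, was at 63.5, 61, 84.5 and 181.98 CPM, against 4.27, 26.9, 22.2 and 78.9 CPM. On each day Lamtor2 was higher in N4d.early2, though the groups overlapped between days. Cebpzos lies opposite Cebpz, and without strand their reads cannot be told apart.

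On the lower side stood 12 genes, Lrrc16b, Ankrd6, Plcb1, Mir99ahg, Rai14, Trim9, Erbb4, Glt8d1, Foxred2, Pabpn1, Crebzf and Mbtps1. Trim9, a ubiquitin ligase of axon branching, was at 29.3, 17.2, 37.2 and 56.5 CPM in N4d.early2, against 103.9, 122.02, 132.2 and 138.4 CPM in N4d.late2. Pabpn1, the nuclear poly(A)-binding protein, was at 116.2, 80.2, 73 and 61.4 CPM, against 360.5, 330.6, 236.3 and 127.6 CPM. Both genes were without overlap, at -1.91 ± 0.62 and -1.59 ± 0.41. Plcb1, a phospholipase C of receptor signalling, was at 20.2, 16.9, 30.8 and 10.5 CPM in N4d.early2, against 46.7, 144.1, 107.1 and 81.7 CPM in N4d.late2. Mir99ahg, a long noncoding host transcript of microRNAs, was at 77.3, 93.3, 84.7 and 205.8 CPM, against 280.8, 446.4, 670.9 and 609.2 CPM, with no overlap in either gene.

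Few genes set N4d.early2 apart from all 3 other clusters at once. Of 7731 genes tested in every comparison, 2 were higher in N4d.early2 in all 3 (0.0259%) and 9 lower (0.116%). The 2 were Hpca and Tmem42. Hpca (chr4:129111570-129122036, minus strand) encodes hippocalcin, a neuronal calcium sensor. It was at 38.1, 98, 45.7 and 87.5 CPM in N4d.early2, against 1.68 CPM in N4d.early1 at E12, 20.3 CPM in N4d.late1 at E14 and 0.0971, 27.1, 6.88 and 26.8 CPM in N4d.late2. All 4 N4d.early2 values were the higher ones, but in cells with at most 5% mitochondrial reads the difference of 1.13 from N4d.late1 became -0.88. Hpca had a read in 21.05%, 43.4%, 29.8% and 35.2% of thinned N4d.early2 cells, against 9.5% in N4d.early1 at E12 and 14.3% in N4d.late1 at E14. The membrane protein gene Tmem42 (chr9:123021326-123023705, plus strand) was at 29.0, 51.3, 31.4 and 37.4 CPM in N4d.early2, against 8.24 CPM in N4d.early1 at E12, 9.58 CPM in N4d.late1 at E14 and 0.389, 4.61, 0.344 and 16.8 CPM in N4d.late2. For Tmem42 too the difference from N4d.late1 turned, to -0.88, in cells with at most 5% mitochondrial reads.

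Of the 9 lower genes, 5 met the rule for names: Scrib, Cmah, Kcnh7, Mir99ahg and Xist. Kcnh7, a voltage-gated potassium channel, was at 45.9, 40.7, 28.2 and 51.1 CPM in N4d.early2, against 109.8 CPM in N4d.early1 at E12, 96.3 CPM in N4d.late1 at E14 and 128.9, 107.1, 93.4 and 115.01 CPM in N4d.late2. Scrib, a scaffold of cell polarity, was at 15.0, 21.9, 14.8 and 14.8 CPM in N4d.early2, against 44.2, 72.5, 144.1 and 31.0 CPM in N4d.late2. All values of N4d.early2 were the lower ones in these genes. Xist is the RNA that coats the inactive X chromosome of female cells. The labels name no sex, and without strand Xist cannot be told apart from its antisense partner Tsix.

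Within N4d.early2 the injection days were compared by a straight line on the day, in log2 units per embryonic day, fitted over 8 sums of N4d.early2 and N4d.late2 with edgeR's quasi-likelihood test. The N4d.early2 and N4d.late2 sums of a day come from the same sample but entered as separate ones, so the slope p-values leave out that pairing. Of 8906 genes 0 passed the adjusted threshold of 0.05 (0%), and 2.21% had an unadjusted p under 0.05. DESeq2 called 24 genes in the same design (0.269%), 15 with a positive and 9 with a negative slope. The difference between the slopes of N4d.early2 and N4d.late2 gave 0 calls by edgeR (0%), with 2.72% of genes at an unadjusted p under 0.05, and 9 by DESeq2 (0.101%). The slopes below are therefore values that failed the main correction, and each carries the age at collection with it. With run code as a block, edgeR again called 0 of the N4d.early2 slopes, with 3.1% of genes at an unadjusted p under 0.05. Fitted on the N4d.early2 sums alone, with 2 residual degrees of freedom, edgeR called 0 of 8610 genes, with 8.66% at an unadjusted p under 0.05. The share under 0.05 thus differed with the sums in the fit.

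The smallest p of a day slope belonged to Zbtb20 (chr16:42875881-43642602, plus strand), a zinc finger factor of cortical layer formation and gliogenesis. It was at 177.04, 246.7, 393.6 and 616.2 CPM in N4d.early2 at E12, E13, E14 and E15, a slope of 0.61 ± 0.10 (SE; edgeR p = 0.000129, adjusted p = 1.00). Each day was above the one before it. DESeq2 gave Zbtb20 an adjusted p of 0.000228. N4d.late2 had the same order, at 307.1, 618.6, 877.4 and 1269 CPM. Zbtb20 had a read in 53.95%, 70.6%, 83% and 94.4% of thinned N4d.early2 cells.

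Meis2, a homeobox cofactor, was at 102.02, 96.8, 242.6 and 439.7 CPM in N4d.early2, with a slope of 0.75 ± 0.15, and of 0.30 with run code as a block. Nf1, a regulator of Ras, was at 23.3, 57.4, 59.9 and 229.1 CPM, with a slope of 1.01 ± 0.23. Both were highest at E15. Pcdh17, a protocadherin, was at 82.7, 27.4, 11.4 and 3.23 CPM, with a slope of -1.53 ± 0.32. The neuropeptide gene Npy was at 84.3, 15.8, 5.82 and 0.343 CPM, with a slope of -2.42 ± 0.56. Ankrd44 was at 38.4, 21.7, 6.21 and 1.37 CPM, with a slope of -1.62 ± 0.38. These 3 genes were highest at E12 and lowest at E15, in levels that were small at E15. All 5 had an adjusted p of 1.00 by edgeR, and all 5 were among the 24 calls of DESeq2.

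**Figure D4:**
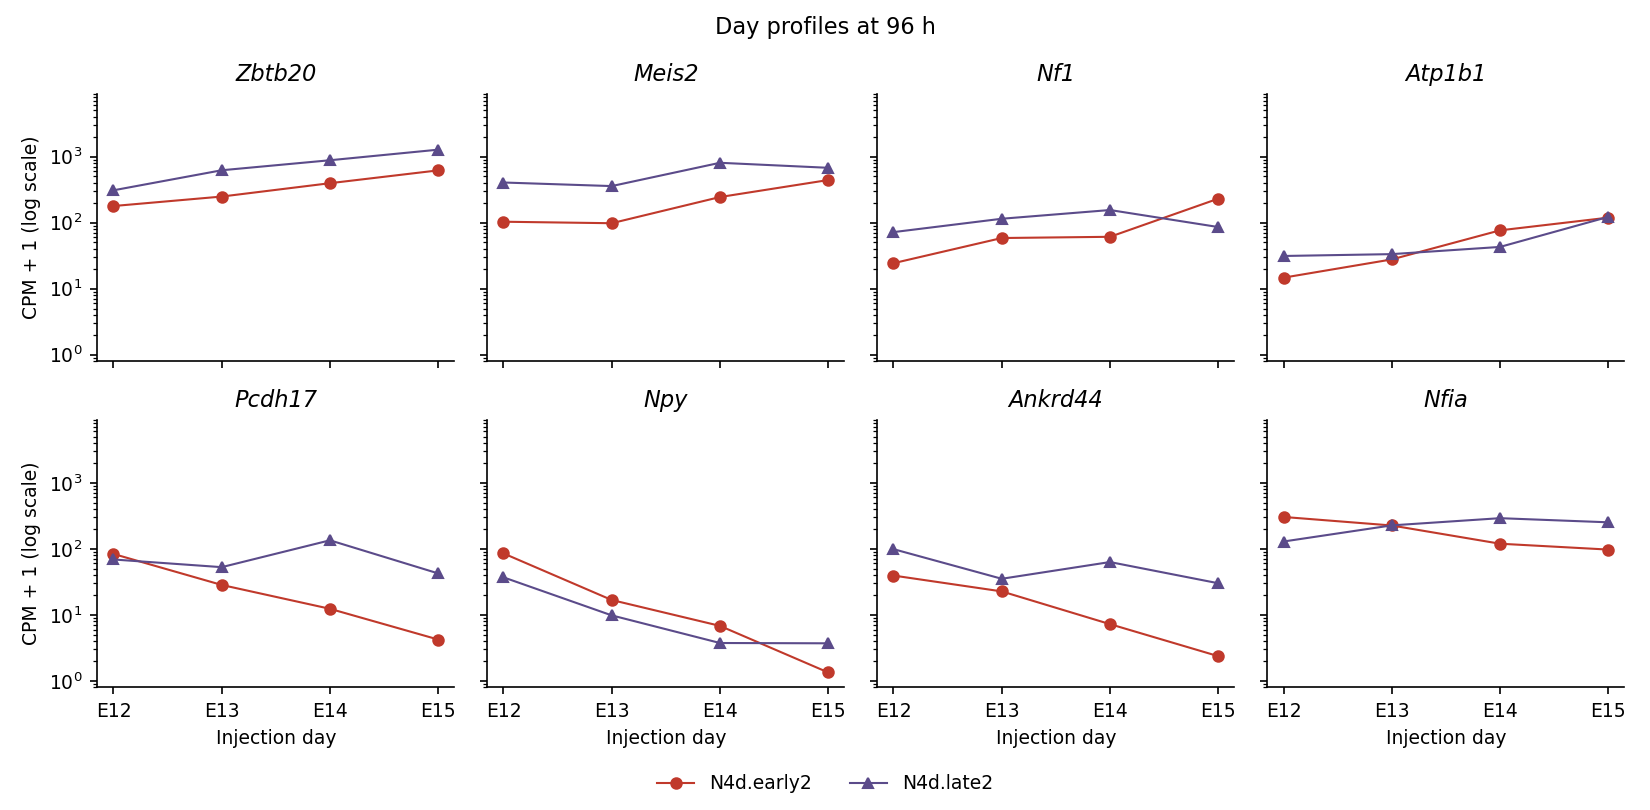
CPM + 1 (log axis) of the 6 genes with the smallest p of a day slope, Atp1b1 and Nfia, by injection day at 96 h, in N4d.early2 and N4d.late2. Points are the sums of a cluster on a day, 1 sample each, so no error bar is drawn. In N4d.early2, Zbtb20 stands at 177.04 CPM at E12 and 616.2 CPM at E15, and Npy at 84.3 and 0.343 CPM.

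Other genes called by DESeq2 included Fabp7, Lhx6, Atp1b1, Cdh8 and Pou3f3, chosen for description after their values were seen. Fabp7, a lipid-binding protein of radial glia, was at 46.5, 36.8, 336.9 and 262.4 CPM in N4d.early2, high on both days of 1 run code and low on both of the other. Lhx6, a factor of interneurons from the medial ganglionic eminence, was at 71.4, 24.1, 17.0 and 0.343 CPM. Lhx6 is itself among the interneuron markers whose sums are given above, and their part in its slope was not tested. Atp1b1, a subunit of the sodium pump, was at 13.7, 26.7, 75.3 and 117.7 CPM, and the cadherin Cdh8 at 86.3, 63.3, 45.3 and 5.49 CPM. Pou3f3 was at 648.9, 732.9, 1197 and 1349 CPM, with a slope of 0.39 ± 0.09. The apical progenitor and astrocyte sums given above also differed between the days of the 2 run codes, and their part in these slopes was not tested.

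Among the markers of the cluster, Mef2c was even over the days, with a slope of -0.06 ± 0.13 in N4d.early2. Bcl11b had a slope of -0.65 ± 0.43 (edgeR p = 0.16). Ldb2, whose levels are given above, had a slope of -0.82 ± 0.24 (p = 0.00745, adjusted p = 1.00). Neurod6 was at 2079, 1757, 1195 and 1066 CPM, with a slope of -0.34 ± 0.10 (p = 0.0072, adjusted p = 1.00). Both were highest at E12 without passing the test.

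For the difference of slopes, Nfia had the smallest p. This nuclear factor was at 302.8, 224.6, 118.5 and 96.4 CPM in N4d.early2, against 128.03, 225.5, 290.1 and 251.1 CPM in N4d.late2. N4d.early2 was the higher at E12 and the lower at E14 and E15, and the slopes differed by -0.91 ± 0.22 (edgeR p = 0.00188, adjusted p = 1.00). Pdzrn3, Shisa5, Nr2e1, Gga2 and Pdpr followed in that ranking. Pdzrn3, a ubiquitin ligase, was at 7.11, 23.5, 26.5 and 51.8 CPM in N4d.early2, against 138.3, 159.5, 22.2 and 26.6 CPM in N4d.late2, with the order of the clusters turned between E13 and E14.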

How the data were processed

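The authors deposited raw counts by gene for 2756 single cells. N4d.early2 holds 327 cells, 322 of them at 96 h (76 at E12, 145 at E13, 47 at E14, 54 at E15, of 244, 267, 254 and 237 cells). N4d.early1 holds 31 cells, N4d.late1 146 (135 at E14) and N4d.late2 205 (43, 53, 29 and 70 at 96 h by day). Per the submitters' processing notes the build was GRCm38 and the tools TopHat2 2.0.13 and UMI-tools, with no role stated. Column totals were 0.987 to 1.0 times the read number in the labels, so the counts were taken as reads. Counter, annotation and cell filters are not given in the sources used here. No doublet caller was run.

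Counts were summed by cluster and injection day and scaled by TMM over sums with at least 5 cells. Genes that averaged 10 CPM or more in the compared sums were tested. Slopes came from edgeR 4.0.16 (quasi-likelihood test, 8 sums, 4 residual degrees of freedom) in R 4.3.3, with Benjamini-Hochberg adjustment over all genes, and from DESeq2 1.42.0 as an alternative. As no animal is named, a p-value covers the spread between sums and nothing beyond it. Detection was counted after thinning to 100000 reads, which left out 2 of 322 N4d.early2 cells at 96 h. Single-gene shares given for a whole cluster cover cells of all collection times. Python 3.11.15 was used for other steps, and positions are from GENCODE vM21 on GRCm38.

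Members and lists were chosen with earlier results of these data known. Named genes were up to 12 (N4d.late2) or 8 (other clusters) per direction with the largest difference that averaged 50 CPM or more, those in all 3 comparisons, the 6 with the smallest slope p, up to 4 members of each list, and 10 followed genes, with predicted, ribosomal and mitochondrial genes passed over. Some genes that met these rules are not reported here. Further list members and DESeq2 calls were named after their values were seen. Intervals and limits for a count of 0 (3 cells of the total) cover counting error only. Alternatives were other scalings, filters, pseudocounts, thinning, equal weight per cell and equal cells per day. Others were run or day as a block, N4d.early2 sums alone, single days left out, and cells with at most 5% mitochondrial reads. The restriction to these cells was added after the data were seen.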

Additional observations from a re-analysis of the deposited data

Results flagged for a closer look

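In 41 groups of 4 days each, the gap of the most distant day was set against the range of the group (Dixon's 95% critical value 0.829), which chance passes in about 1 of 20 groups, and 3 passed. For Bcl11b the difference of N4d.early2 minus N4d.late2 was 2.53 on the log2 scale at E14, where 49.6 CPM in N4d.early2 stood against 7.74 CPM in N4d.late2, while on the other days N4d.early2 was the lower. For Foxred2, an endoplasmic reticulum flavoprotein, the difference was -3.24 at E14, and for Tbr1 it was -1.64 at E14, both further below 0 than on the other days. All 3 fall on E14, where N4d.late2 holds 29 cells, the fewest of its days. The part of that cell number was not tested.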

How the results depend on the processing

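No paired analysis was possible because the labels give no replicate numbers, and sums were matched by injection day alone. With the day as a block shared by both clusters, edgeR called 0 slope differences, with 2.77% of genes at an unadjusted p under 0.05. Of genes tested, 0.427% were higher than in N4d.late2, a share of 0.259% with library size scaling, 0.651% without a filter, 0.706% with equal weight per cell, 0.269% with a pseudocount of 5 CPM and 3.23% in cells with at most 5% mitochondrial reads. The lower ones, 0.909%, were 1.47% with equal weight per cell, 0.517% with a pseudocount of 5 CPM and 1.44% in those cells. With a day left out the shares were 1.1% to 1.99% higher and 1.7% to 2.31% lower, under a rule that then asks for fewer days. They were 1.1% and 1.99% without E12, 1.66% and 2.31% without E13, 1.13% and 1.7% without E14, and 1.99% and 2.11% without E15. Beside N4d.early1, the shares of 14.3% higher and 9.66% lower were 22.4% and 22.1% in cells with few mitochondrial reads, where no second day was asked for, and 17.5% were higher without a filter. Beside N4d.late1, the shares of 7.37% and 6.55% were 14.3% and 16% in those cells, and 7.18% and 6.5% without a filter, out of more genes tested. In those cells Hpca and Tmem42 (both -0.88) and Fos (-0.66) turned beside N4d.late1, and Kcnc1 (0.12) beside N4d.early1. The cause was not tested. N4d.early2 made up 52.78%, 69.71% and 41.54% of 4-day neurons at E12, E13 and E15. DESeq2 called 24 day slopes and 9 slope differences where edgeR called 0, and edgeR called 0 with each day left out. The median of all genes beside N4d.early1 was 0.02, and -0.11 with library size scaling. Beside N4d.late2 it was 0.13, and 0.25 in cells with few mitochondrial reads. The days with 9 cells of N4d.early1 and 6 of N4d.late1 gave a sign only.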

Other observations

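The 5 N4d.early2 cells collected at 1 h were in no sum by day, and their values are given singly. They are included in the single-gene shares of thinned cells given for the whole cluster. The E12 cell had 517338 reads, with Bcl11b at 1011 CPM, Sox5 at 898.8 CPM and Mef2c at 96.7 CPM. The E13 cell had 686609 reads, with Bcl11b at 699.1 CPM, Sox5 at 241.8 CPM and Mef2c at 649.6 CPM. In the 3 E15 cells, with 202957, 419274 and 274849 reads, Bcl11b was at 0, 0 and 14.6 CPM. Sox5 was at 418.8, 0 and 3.64 CPM and Mef2c at 256.2, 107.3 and 338.4 CPM in the same order.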
